A study of Drosophila melanogaster with 8 samples.

Results

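The genes described here are 38 Drosophila genes that mark neuroblasts, the neural stem cells of the fly brain, or that act in their identity, their asymmetric division and their timing. They were taken by name from a list and are 38 of the 17224 genes in the deposited counts. Each listed gene was matched to RefSeq transcripts, and the counts of a gene's transcripts were added. RNA had been sequenced from pooled larval brains of Canton S (CS), the wild-type strain, aged 58 to 62 h after egg laying, and of STIM KO, aged 72 to 76 h, with 4 libraries of each. STIM KO is a CRISPR-Cas9 deficiency that serves as a null mutant of Stim, which encodes the calcium sensor of the endoplasmic reticulum, and it is null in every cell and not only in neurons. The ages were chosen by the study to give comparable second instar larvae, so genotype and age differ together and cannot be told apart. Whole brains were used, so these values cannot tell fewer neuroblasts from less RNA per neuroblast either. The study stained thoracic neuroblasts of control and STIM KO larvae of the same age, close to that of STIM KO here. Its control was therefore older than the CS larvae sequenced. It reported that the proteins of dpn and pros appeared normal in STIM KO. In older larvae it found the number of thoracic neuroblasts unchanged and fewer cells positive for the pros protein. It also reported that the ratio of dividing to non-dividing neuroblasts changed. By a cell cycle reporter, most thoracic neuroblasts of older STIM KO larvae remained late in the cycle, before or in mitosis.

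Larval neuroblasts divide again and again, and each division renews the stem cell and buds off a smaller cell that makes neurons or glia. Polarity proteins at one pole of the dividing cell push fate determinants to the other pole, so that only the smaller daughter inherits them. As it divides, a neuroblast runs through a series of temporal transcription factors and RNA-binding proteins that change the kinds of neurons it makes. In the second instar many neuroblasts have only just left the quiescence in which they passed from embryo to larva.

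The stem cell identity and proneural genes had lower fitted levels in STIM KO, and so had the Notch receptor gene N and its ligand gene Dl, but none of the 28 genes that could be tested passed the threshold over all genes. In asense (ase) all 4 STIM KO libraries lay below the 4 CS libraries (not with library size as the only scaling), and ase had the smallest p of the list with genotype alone, while Dl and N had smaller ones with a term for the library set. The asymmetric division genes did not move together: brat and pros had higher means in STIM KO, and baz and mira had lower ones. The temporal genes chinmo and Imp did not differ beyond the spread between libraries, and neither did the neuron gene elav.

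The libraries held 395680 to 2090717 counts and formed 2 sets, the same for CS and STIM KO. Ambiguous reads made up 9.89% to 18.0% of replicates 1 and 2, against 33.54% to 34.48% of replicates 3 and 4, and the labels name no batch. Values are therefore given for each library, and each test was run first with genotype alone and then with a term for the library set, chosen after the data were seen. The deleted gene had few counts. One Stim transcript, NM_001298380.1, was counted 2 to 9 times in each CS library and 0 times in every STIM KO library. Another, NM_206747.3, was counted 1 to 6 times in CS libraries, 14 and 19 times in STIM KO replicates 1 and 2, and 3 and 2 times in replicates 3 and 4. The extent of the deletion is not given in the sources used here, so the labels were checked only in part.

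For most of these genes the counts cover only a stretch of the gene. Reads had been counted per transcript, and a read that matches several transcripts of a gene is ambiguous and is given to none. Of the 38 genes, 11 have 1 RefSeq transcript, among them ase, dpn, wor, l(1)sc, tll, insc, pins, btd, slp1 and slp2. They were counted over nearly their whole length, dpn only if strand was used in counting. The other 27 have several transcripts, and the median share of their exonic bases that lie in exactly 1 transcript was 13.2%, against 11.6% for all 7395 such genes. That stretch was 539 of 10150 exonic bases for N (5.3%), 442 of 10881 for baz (4.1%) and 355 of 4792 for klu (7.4%). For N, Dl, baz and par-6 it lies wholly in the 3′UTR, the untranslated end of the transcript, and for pros and klu wholly in the 5′UTR. Syp, which encodes the RNA-binding protein that marks late neuroblasts, and D, which encodes a Sox factor, have no such base at all and had 0 counts in every library. The eye gene ey, a factor of the optic lobe series, has 258 such bases and also had 0 counts. Nothing can be read about the expression of these 3 genes.

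**Figure D1:**
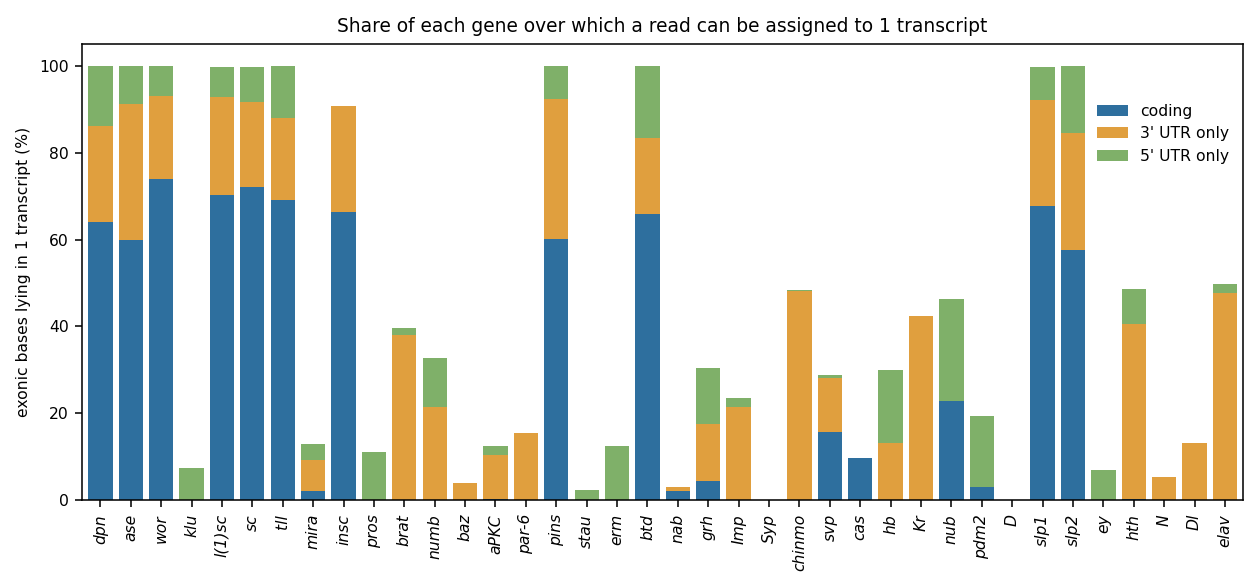
Share of the exonic bases of each of the 38 genes that lie in exactly 1 annotated transcript (percent), split by colour into coding, 3′UTR and 5′UTR bases. Genes with 1 transcript stand at or near the full length, while N is at 5.3%, baz at 4.1%, and Syp and D at 0. Transcripts of the other strand, such as the antisense RNA at dpn, were not taken into account.

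All 6 tested stem cell identity genes had a lower fitted level in STIM KO, with a median log2 fold change of -1.08 (-1.17 with the set term), against 0.04 and 0.10 over all 5540 genes tested. The 6 genes are dpn, ase, wor, klu, l(1)sc and tll. All 6 were below 0 under every scaling tried and within each library set. Summed over the 7 listed identity genes, the level was 938.5 to 1257.8 CPM (counts scaled by library size and TMM factor) for CS. For STIM KO it was 230.5 to 810.5 CPM, so the sums did not overlap. The sums mostly follow wor, ase and dpn, with CS means of 358.0, 357.5 and 241.3 CPM, and tll came next at 94.7 CPM. Of the 7, only sc had the higher mean in STIM KO (4.01 against 3.57 CPM), which adds little to the sum. How often sums of 7 other genes separate in this way was not tested. The only tested member of the group with an unadjusted p under 0.05 in the fit with genotype alone was ase.

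The gene ase encodes a proneural factor of the basic helix-loop-helix family that is made in most larval neuroblasts and their immediate daughters. It spans bases 460747 to 463176 of chromosome X (dm6), has 1 transcript and was counted over all of its 2430 bases. Its level was 356.0, 292.4, 416.7 and 364.8 CPM in the CS libraries 1 to 4, against 109.3, 211.8, 106.4 and 241.7 CPM in those of STIM KO. Every STIM KO library was below every CS library, and the library sets did not separate. CS averaged 357 ± 51.0 CPM and STIM KO 167 ± 69.7 CPM (SD, 4 libraries each). The log2 fold change was -1.10 (SE 0.44, Benjamini-Hochberg adjusted p = 0.697 over all genes) in edgeR's quasi-likelihood fit, and -1.10 (SE 0.35, adjusted p = 0.145) with the set term. The exact 2-sided permutation p for ase was 0.0286, the smallest that 4 libraries against 4 can give. Taken by set, STIM KO minus CS was -1.08 (mean log2 CPM) for replicates 1 and 2 and -1.27 for replicates 3 and 4.

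The gene worniu (wor) encodes a zinc finger factor of the Snail family that keeps neuroblasts dividing. It had 136.7, 92.9, 564.1 and 638.4 CPM in the CS libraries, against 46.3, 113.8, 155.0 and 373.5 CPM in those of STIM KO. The groups overlapped, since STIM KO replicate 2 was above CS replicate 2, and both genotypes were higher in replicates 3 and 4. For wor the log2 fold change was -1.06 (SE 0.80), and -0.88 (SE 0.40, 95% interval -1.76 to 0.01) with the set term.

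The gene deadpan (dpn) encodes a Hes-type repressor that holds neuroblasts in self-renewal and is a common marker of them. Its level was 394.1, 393.2, 115.7 and 62.3 CPM in the CS libraries, against 13.8, 121.0, 36.7 and 118.6 CPM in those of STIM KO. The groups overlapped, and the difference was -3.19 (log2) for replicates 1 and 2, against -0.35 for replicates 3 and 4. The fitted log2 fold change was -1.73 (SE 0.82) and -1.36 (SE 0.73, 95% interval -2.97 to 0.24) with the set term. With 1 library left out, the set-term value ran from -2.025 (without STIM KO replicate 4) to -0.78 (without STIM KO replicate 1). An antisense RNA, asRNA:CR44275, overlaps dpn on the other strand and leaves 829 of its 2036 bases free. The sources used here do not state whether strand was used in counting, so reads of the pair cannot be told apart. That antisense RNA had 174.8, 144.2, 81.8 and 47.0 CPM in the CS libraries, against 37.4, 64.8, 25.3 and 64.4 CPM in those of STIM KO.

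The gene l(1)sc encodes a proneural factor that marks the passage from neuroepithelium to neuroblast in the optic lobe. It lies on chromosome X, from 409721 to 410817. It had 41.3, 41.5, 9.94 and 5.37 CPM in the CS libraries, against 19.7, 37.5, 0.954 and 1.46 CPM in those of STIM KO. The last 2 values rest on 2 and 3 counts. Within each library set both STIM KO libraries were below both CS libraries, while across the sets the genotypes overlapped. The log2 fold change of l(1)sc was -0.72 (SE 1.16) with genotype alone and -1.38 (SE 0.57, adjusted p = 0.249) with the set term in edgeR's quasi-likelihood fit.

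Of the other identity genes, klu and tll gave smaller counts or smaller differences. Klumpfuss (klu), a zinc finger factor of self-renewal, had 144 counts in all, and the set-term log2 fold change was -1.25 (95% interval -2.67 to 0.16). Tailless (tll), a nuclear receptor needed in optic lobe and type II neuroblasts, had a mean of 94.7 ± 28.3 CPM (SD, n = 4) across CS and 61.9 ± 19.6 CPM (SD, n = 4) across STIM KO, with a set-term log2 fold change of -0.63 (95% interval -1.42 to 0.16). The proneural gene scute (sc) had 44 counts over the 8 libraries and was not tested.

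**Figure D2:**
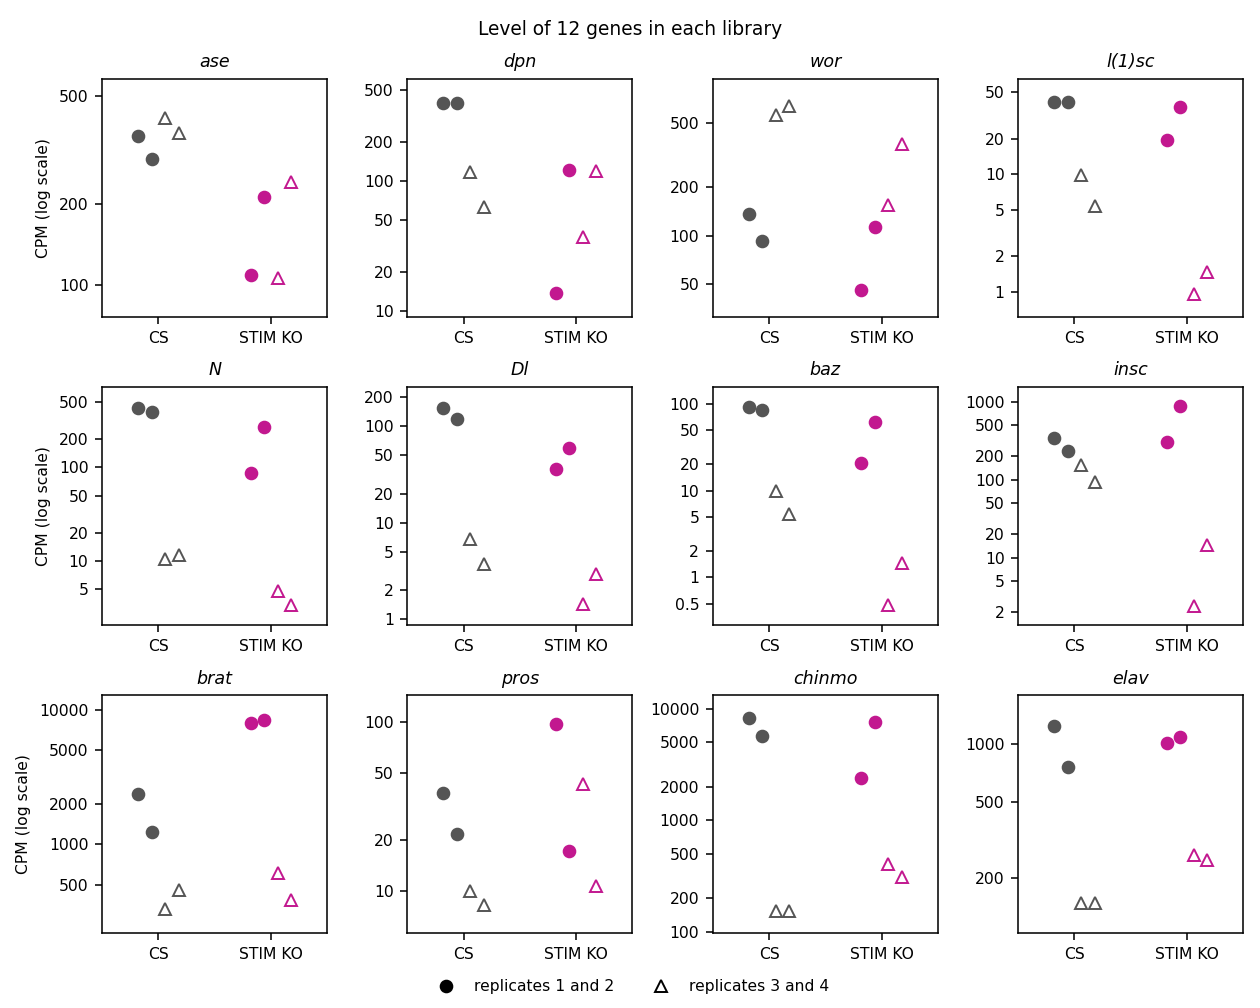
Level of 12 of the genes in each of the 8 libraries, in CPM on a log axis whose range differs between panels, with CS in grey and STIM KO in magenta, replicates 1 and 2 as filled circles and replicates 3 and 4 as open triangles. The CS and STIM KO points of ase do not overlap (lowest CS 292.4 and highest STIM KO 241.7 CPM), and N, Dl, baz and l(1)sc are lower in STIM KO within each pair of replicates but differ more between the pairs.

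Notch signalling keeps neuroblasts in self-renewal, and in each library set both STIM KO libraries lay below both CS libraries for both of its listed genes. N, which encodes the receptor, lies on chromosome X from 3134870 to 3172221. Its level was 435.5, 391.2, 10.4 and 11.6 CPM in the CS libraries, against 87.7, 269.5, 4.77 and 3.42 CPM in those of STIM KO. The STIM KO libraries were below the CS libraries of their own set, but replicates 1 and 2 were far above replicates 3 and 4 in both genotypes. For N the log2 fold change was -1.22 (SE 1.51) with genotype alone and -1.30 (SE 0.38, adjusted p = 0.123) with the set term in edgeR's quasi-likelihood fit. Dl, which encodes the ligand Delta, lies on chromosome 3R from 19302731 to 19326217. It had 155.7, 118.5, 6.78 and 3.71 CPM in the CS libraries, against 36.4, 59.1, 1.43 and 2.93 CPM in those of STIM KO. It showed the same order as N, with the library sets further apart than the genotypes. Its log2 fold change was -1.51 (SE 1.37), and -1.41 (SE 0.42, adjusted p = 0.122) with the set term in edgeR's quasi-likelihood fit. These values come from 539 bases of the N 3′UTR and 697 bases of the Dl 3′UTR.

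The asymmetric division genes had no common direction. Of 9 tested, 6 had a positive and 3 a negative log2 fold change with genotype alone, and 5 and 4 with the set term, with medians of 0.41 and 0.13. The apical complex is built on Bazooka, atypical protein kinase C and Par-6, encoded by baz, aPKC and par-6. The gene baz, on chromosome X from 17160006 to 17200728, had 92.2, 85.0, 9.94 and 5.37 CPM in the CS libraries, against 20.7, 62.0, 0.477 and 1.46 CPM in those of STIM KO. Within each set both STIM KO libraries were the lower ones, and the 2 smallest values rest on 1 and 3 counts. Its set-term log2 fold change was -1.76 (SE 0.57, adjusted p = 0.156) in edgeR's quasi-likelihood fit. The 95% interval of the set-term log2 fold change was -0.60 to 0.86 for aPKC and -1.45 to 0.14 for par-6, and neither passed the test.

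Inscuteable (insc) joins this complex to Partner of Inscuteable (pins), which orients the spindle. The gene insc had 340.1, 235.1, 153.2 and 92.9 CPM in the CS libraries, against 299.5, 880.5, 2.38 and 14.6 CPM in those of STIM KO. The STIM KO libraries lay on both sides of CS: replicate 2 was the highest of all 8 and replicates 3 and 4 were the lowest. For replicates 1 and 2 STIM KO exceeded CS by 0.86 (mean log2 CPM), while the difference was -3.95 for replicates 3 and 4. The interaction of genotype and set for insc was -4.88 (log2, adjusted p = 0.094) in edgeR's quasi-likelihood fit, and its unadjusted p was 7.28e-04. A gene nested in insc on the same strand, sktl, had only 3 to 12 counts in each library. The gene pins had a mean of 446 ± 104 CPM (SD, n = 4) across CS and 595 ± 199 CPM (SD, n = 4) across STIM KO, and its set-term log2 fold change had a 95% interval of -0.32 to 1.18.

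Among the determinants that pass to the smaller daughter, brat alone had a higher value in STIM KO at an unadjusted p under 0.05, in the edgeR fit with the set term and not with genotype alone or with the replicate block. Brain tumor, its product, represses translation of stem cell mRNAs. The gene lies on chromosome 2L from 19133816 to 19179758, and 4876 of the 5064 bases that could be counted are 3′UTR. Its level was 2348.9, 1240.8, 332.6 and 455.2 CPM in the CS libraries, against 7901.2, 8379.7, 609.6 and 387.2 CPM in those of STIM KO. STIM KO replicates 1 and 2 were the highest of the 8 libraries, while replicates 3 and 4 of the genotypes overlapped. The difference was 2.25 (log2) for replicates 1 and 2, against 0.32 for replicates 3 and 4. The log2 fold change of brat was 1.98 (SE 1.14) with genotype alone and 1.26 (SE 0.49, adjusted p = 0.227) with the set term in edgeR's quasi-likelihood fit.

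The other determinant genes did not pass in either fit. Prospero (pros), the homeodomain factor that ends self-renewal in the daughter cell, had 38.1, 21.7, 9.94 and 8.25 CPM in the CS libraries, against 97.5, 17.3, 42.9 and 10.7 CPM in those of STIM KO. STIM KO replicate 1 was above and replicate 2 below both CS libraries of their set, and STIM KO replicates 3 and 4 were both above theirs. The set-term log2 fold change was 1.27 (95% interval -0.09 to 2.64), read from 2796 bases of 5′UTR. For mira, which encodes the adaptor that carries Prospero and Brat, the set-term log2 fold change was -1.06 (95% interval -2.23 to 0.12), and for numb, which encodes an inhibitor of Notch, it was 0.68 (95% interval -0.21 to 1.57). Staufen (stau), the RNA-binding protein that carries pros mRNA, had 11 counts in all over 129 countable bases.

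Of the 3 genes of intermediate progenitors and type II lineages, only btd had enough counts to test. Buttonhead (btd), a zinc finger factor of the Sp family needed for type II neuroblasts, had 89.0, 71.1, 165.4 and 127.9 CPM in the CS libraries, against 36.4, 53.3, 111.1 and 97.2 CPM in those of STIM KO. Within each set the STIM KO libraries were below the CS libraries, and across the sets the genotypes overlapped. The set-term log2 fold change was -0.66 (SE 0.30, 95% interval -1.33 to 0.01). The gene erm, for a factor that stops intermediate progenitors from turning back into neuroblasts, had 16 counts, and nab, for a transcriptional cofactor, had 7.

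The temporal genes chinmo and Imp differed more between the library sets, by 4.53 and 3.48 (mean log2 CPM, replicates 1 and 2 minus replicates 3 and 4), than between the genotypes. The BTB zinc finger gene chinmo, which is high in young neuroblasts and the early-born neurons they make, lies on chromosome 2L from 1651258 to 1704682. Its level was 8356.2, 5713.8, 154.6 and 153.9 CPM in the CS libraries, against 2401.6, 7579.9, 405.4 and 308.1 CPM in those of STIM KO. Every library of replicates 1 and 2 was at or above 2401.6 CPM, and no library of replicates 3 and 4 exceeded 405.4 CPM. The log2 fold change of chinmo was -0.43 (SE 1.43) with genotype alone and 0.35 with the set term (95% interval -0.79 to 1.48), with a difference of -0.70 in replicates 1 and 2 and 1.19 in replicates 3 and 4. Imp, which encodes the RNA-binding protein of early neuroblasts that opposes Syp, had a set-term log2 fold change of -0.18 (95% interval -1.0 to 0.65). Its level was 257.5 to 4481.6 CPM in CS and 221.7 to 3765.5 CPM in STIM KO.

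The rest of the temporal series gave 9 tested genes with chinmo and Imp, of which 3 were positive and 6 negative with the set term (median -0.18), and none passed an unadjusted p of 0.05. Grainy head (grh), kept on in late neuroblasts, and svp, a nuclear receptor gene that acts as a switch in the series, had set-term log2 fold changes of -0.72 (95% interval -1.55 to 0.11) and -0.81 (95% interval -1.63 to 0.01). Krüppel (Kr) had 0.63 (95% interval -0.48 to 1.74), and hth, an early factor of the optic lobe series, had 0.20 (95% interval -0.67 to 1.07). The pair slp1 and slp2, forkhead genes of the middle of the optic lobe series, had -0.26 and -0.36, with intervals that include 0. The gene cas, counted over 306 coding bases, had 0 counts in CS replicates 1 and 2 and in STIM KO replicate 2, where a count of 0 allows up to 9.54, 5.93 and 4.32 CPM, and 24.3 to 49.7 CPM in replicates 3 and 4. Its 95% interval, -2.73 to 2.71, was the widest of the 28. The embryonic factors hb, nub and pdm2 had 32, 30 and 7 counts and were not tested.

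The neuron gene elav, which encodes an RNA-binding protein of postmitotic neurons, had 1252.3, 762.6, 148.2 and 148.2 CPM in the CS libraries, against 1013.6, 1095.2, 262.3 and 249.0 CPM in those of STIM KO. In replicates 3 and 4 STIM KO was above CS, and in replicates 1 and 2 the genotypes overlapped. The set-term log2 fold change of elav was 0.42 (95% interval -0.26 to 1.10).

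**Figure D3:**
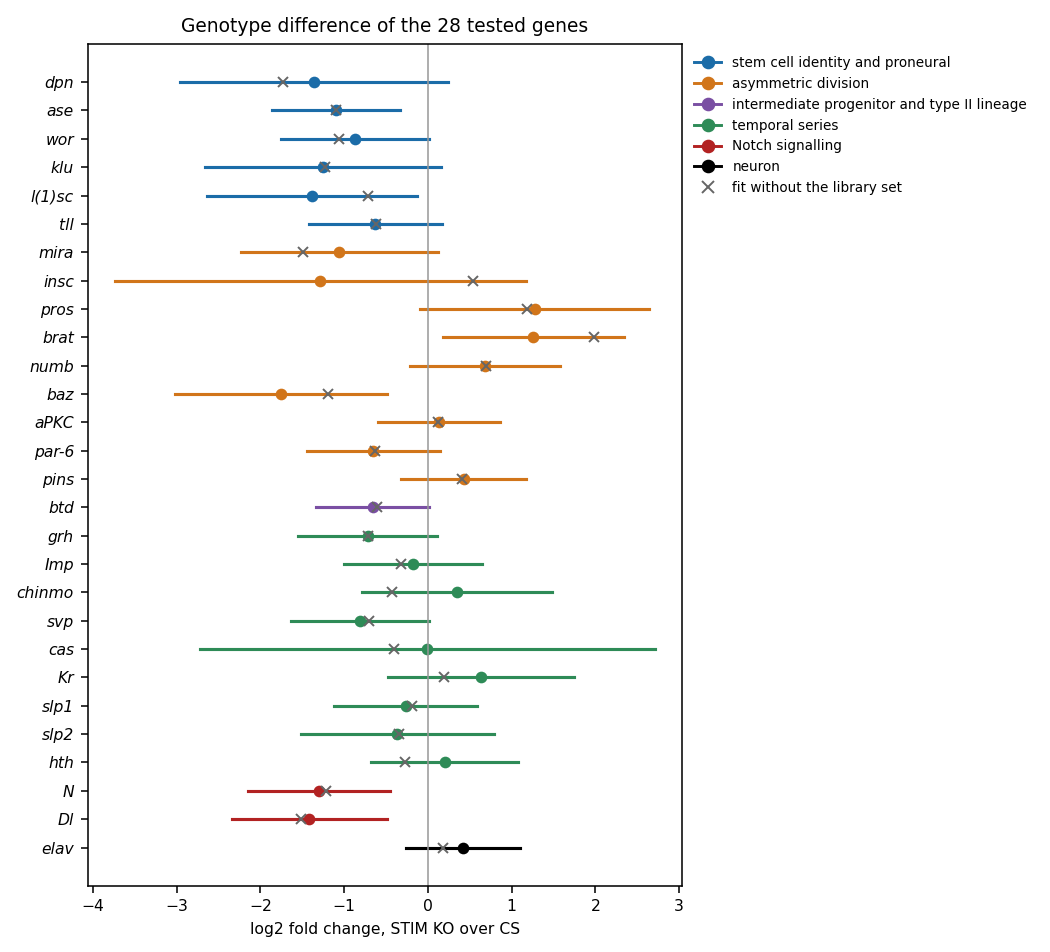
Log2 fold change of STIM KO over CS for the 28 tested genes, with the library set as a term (circles, coloured by role, lines are 95% intervals) and with genotype alone (crosses). The intervals of ase, l(1)sc, baz, N and Dl lie below 0, that of brat lies above it, and the other 22 include it.

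Over the whole list, 28 genes passed the expression filter and 10 did not (sc, stau, erm, nab, Syp, hb, nub, pdm2, D and ey). With genotype alone 0 of the 28 had an adjusted p under 0.05 in edgeR's quasi-likelihood fit, where 0.0% of all genes did as well. At an unadjusted p under 0.05 there was 1 of the 28 (ase), against 6.52% of all genes. Adding the set term brought 6 of the 28 (21.4%) below an unadjusted p of 0.05, against 17.0% of all genes. Of these 6, ase, l(1)sc, baz, N and Dl were lower (17.9%, against 8.03% of all genes for lower values) and brat was higher. The count of 6 was 5 to 10 of 28 or 29 tested when 1 library was left out, with 10 of 29 without STIM KO replicate 2. Over all genes the same count was 940 with every library and 678 to 1105 when 1 was left out. It was 903 without STIM KO replicate 2. None of the 28 passed after adjustment with the set term, where 0.704% of all genes did. DESeq2 with the set term gave an adjusted p under 0.05 for 4 of 30 genes with such a value (13.3%, against 6.58% of all genes): Dl (0.037), N (0.044), baz (0.045) and ase (0.049). With the replicate number as a block, edgeR gave 5 of the 28 at an unadjusted p under 0.05, against 14.7% of all genes, and 0 after adjustment, against 0.289%. Compared with the set term, brat and l(1)sc were lost and wor was gained. DESeq2 with genotype alone gave 0 genes of the list after adjustment, against 1.16% of all genes.

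The ranges of the libraries gave a similar count. Among the 33 genes with at least 10 counts, only ase had no overlap between the genotypes (3.03%, against 5.54% of all genes with as many counts). That count was 3 without CS replicate 2 and 2 without CS replicate 1, STIM KO replicate 1 or STIM KO replicate 3, and with library size as the only scaling it was 0. When the genotypes were compared within each library set, 8 of the 33 had both STIM KO libraries below both CS libraries in both sets (24.2%, against 7.0% of all genes). They were ase, klu, l(1)sc, baz, btd, grh, N and Dl. Some of these rest on few counts or on near ties. In replicate 2, klu had 5 counts in STIM KO against 6 in CS, and grh had 144.1 against 148.2 CPM. None of the 33 was higher in both sets in this way, against 8.4% of all genes. Of the 28 tested genes, 16 had a lower mean in STIM KO in both sets, 5 a higher mean in both, and 7 opposite signs. No share over all genes was taken for these counts, so they are not read as particular to the list.

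**Figure D4:**
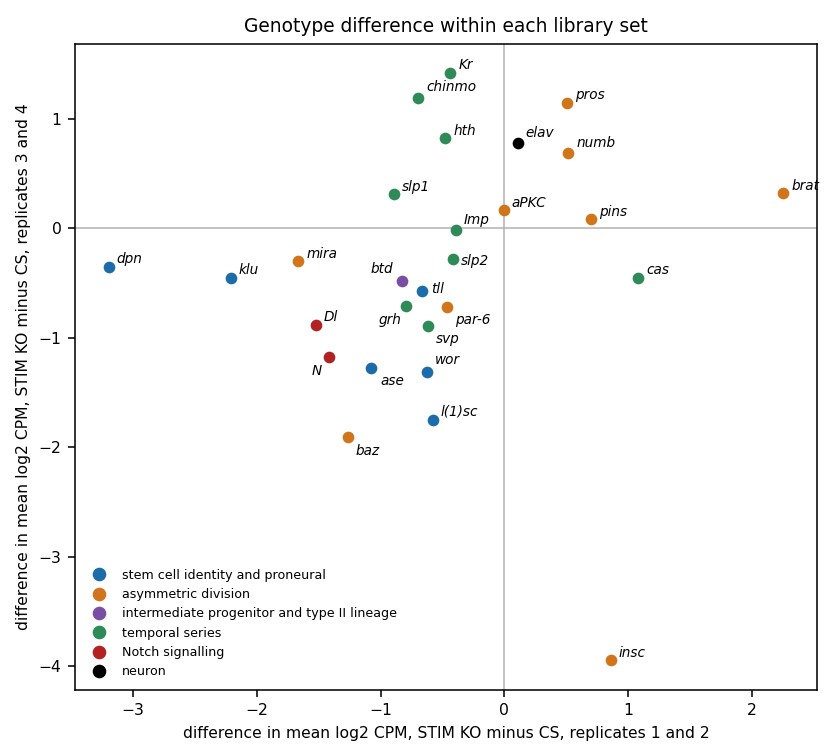
Difference in mean log2 CPM between STIM KO and CS for the 28 tested genes, in replicates 1 and 2 (horizontal) and in replicates 3 and 4 (vertical), coloured by role. Genes at the lower left were lower in STIM KO in both sets, dpn (-3.19 and -0.35) and baz (-1.26 and -1.91) among them, and insc (0.86 and -3.95) had the largest gap between the sets.

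How far apart the library sets lay went with the stretch that could be counted. Of the 13 tested genes counted mostly over 3′UTR, 10 were higher in all libraries of replicates 1 and 2 than in any of replicates 3 and 4 (76.9%, median difference 2.74 on the log2 scale), with N at 4.95. Of the 10 tested genes counted over the whole gene (dpn only if strand was used), 2 were higher in this way, l(1)sc and insc. Of these 10, 2 were lower (median -0.29). Over all genes tested, 19.4% were higher and 24.9% lower without overlap. The share that was higher was 50.8% of the 1121 genes counted mostly over 3′UTR and 9.69% of the 3509 counted over the whole gene. What sets the libraries apart was not tested.

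**Figure D5:**
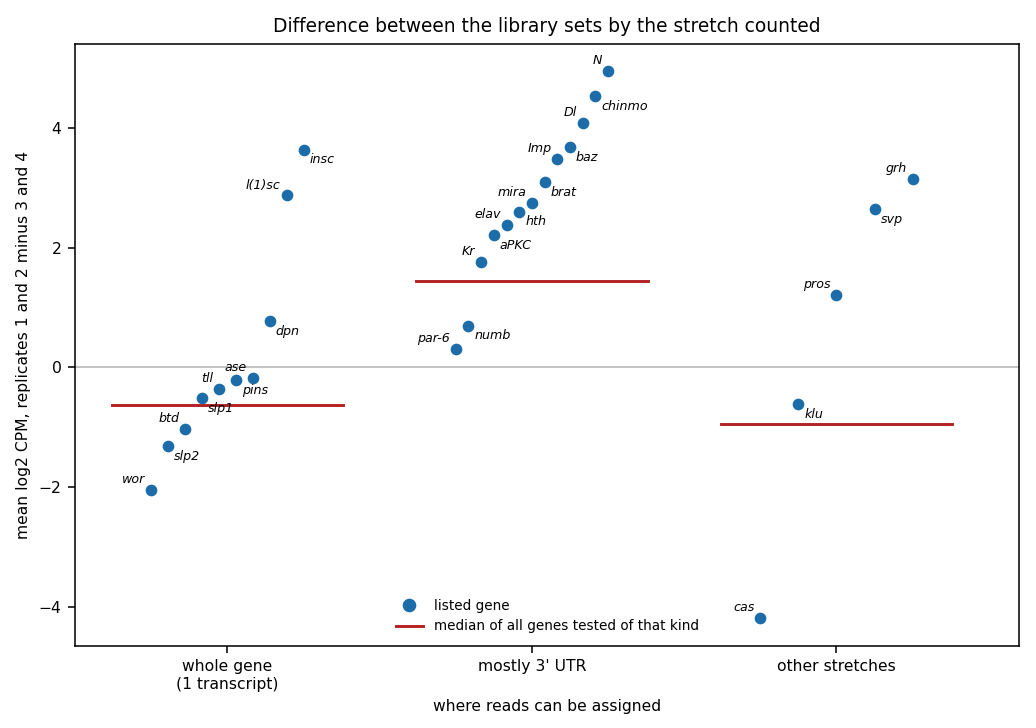
Difference in mean log2 CPM between replicates 1 and 2 and replicates 3 and 4 (4 libraries each, both genotypes) for the 28 tested genes, grouped by where their reads could be assigned. Red lines are medians of all genes tested of that kind: -0.63 for whole genes, 1.44 for mostly 3′UTR and -0.94 for other stretches, and the 13 genes counted mostly over 3′UTR run from 0.31 (par-6) to 4.95 (N).

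Levels of different genes were compared only per countable length and among genes counted over nearly their whole length. The gene dpn was left out, since its countable length depends on whether strand was used. In CS the highest of the others were wor (mean 161 CPM per kb), ase (147 CPM per kb) and pins (136 CPM per kb), followed by insc at 58.2 CPM per kb and tll at 48.2 CPM per kb. The lowest was sc, at 2.48 CPM per kb. In STIM KO the highest was pins (mean 182 CPM per kb), with wor at 77.5 CPM per kb and ase at 68.9 CPM per kb. The insc mean of 84.8 CPM per kb rests on replicate 2, in libraries that ran from 0.676 to 249.6 CPM per kb, so insc has no place in this order. In CS the libraries of wor ran from 41.8 to 287 CPM per kb, those of ase from 120 to 171 and those of pins from 97.9 to 172. The order among wor, ase and pins is therefore not resolved. Those of insc ran from 26.3 to 96.4 CPM per kb in CS, below every CS library of pins but within the range of wor.

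Other genes of the same pathways, taken from lists drawn up with earlier results of these data known, did not pass after adjustment in either edgeR fit. Of 29 further asymmetric division genes, 19 were tested, with a median set-term log2 fold change of -0.02, and at an unadjusted p under 0.05 there was 1 higher and 1 lower. Of 25 further Notch pathway genes 11 were tested (median -0.21), with 0 higher and 2 lower. Of 23 further temporal and late neuroblast genes 9 were tested (median 0.49), with 2 higher and 0 lower. Of 23 genes of exit from quiescence, such as those of insulin signalling and the cell cycle, 17 were tested (median -0.03), with 1 higher and 0 lower. Over all 5540 genes the median was 0.10 in that fit. At an unadjusted p under 0.05 there were 495 higher and 445 lower (8.03%), so counts this small are not read as particular to any list.

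Markers of other cells and tissues were summed in the same libraries. Neuron and glia markers were present in every library, as a brain should give: the summed level of 20 neuronal genes was 2062.7 to 23546.1 CPM in CS and 2903.2 to 20673.3 CPM in STIM KO, and that of 14 glial genes was 1290.1 to 4785.6 and 1121.0 to 6528.6 CPM. The sums overlapped between the genotypes. Of 10 matched imaginal disc and ring gland genes 8 were tested, 7 of them with a lower fitted level in STIM KO. The sum of the 10 was 1137.9 to 8157.0 CPM in CS and 904.9 to 3197.6 CPM in STIM KO. One of them, sad, which encodes an enzyme of ecdysone synthesis in the ring gland, fell by 3.28 on the log2 scale with the set term (edgeR adjusted p = 0.030). Of 17 salivary gland and cuticle genes 7 were at 0 and 3 were tested, and the sum was 22.2 to 125.9 CPM in CS and 85.9 to 1307.2 CPM in STIM KO. The 3 tested, ng1, ng2 and ng3, had higher fitted levels in STIM KO and make up most of the STIM KO sum. The largest set-term log2 fold change was 4.51 for ng3 (edgeR adjusted p = 0.084). For ng1, ng2 and ng3 DESeq2 with the set term gave adjusted p = 0.0022, 0.0016 and 3.8e-05. The other genes of this list with any count had at most 21 counts (Cpr67Fb). Their DESeq2 set-term log2 fold changes were all below 0, from -0.48 (TwdlE) to -3.51 (Sgs4), so the list has no common direction. Fat body and haemolymph genes summed to 95.4 to 282.5 CPM in CS and 142.7 to 223.1 CPM in STIM KO, muscle and trachea genes to 743.9 to 5694.0 and 540.0 to 2804.3 CPM, and haemocyte genes to 4.13 to 38.1 and 3.91 to 23.6 CPM. The part of attached tissues in the values of the neuroblast genes was not tested.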

How the data were processed

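RNA of dissected larval brains was made into cDNA with a low input kit and into libraries with Nextera XT by the authors, 4 of CS and 4 of STIM KO. Reads were trimmed, aligned with HISAT2 against dm6 and counted with HTSeq by the authors, who deposited raw read counts of 34463 RefSeq transcripts per library. The annotation release, the counting mode and the use of strand are not given in the sources used here. A deposited table of the authors' own comparison holds fold changes and p-values and was not used.

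Of the transcripts, 34399 were matched to a gene by exact identifier, 13 without the version and 51 not at all (0.004% of counts). Counts were summed per gene. The fits used edgeR 4.0.16 under R 4.3.3, with TMM factors, the filterByExpr defaults (10 counts, total 15) and quasi-likelihood F tests with Benjamini-Hochberg adjustment. DESeq2 1.42.0 was an alternative, and 2 was the prior count of log2 CPM. The set term and the counts within both library sets were chosen after the data were seen. Countable bases and coordinates come from the Ensembl annotation of the same assembly. Exact permutation p-values are 2-sided and use all 70 labelings. A count of 0 allows up to 3 counts, and floors cover counting error only, since reads carry no molecular identifiers. No pair of libraries agreed within sampling noise (lowest chi-square per degree of freedom 7.37). Figures come from matplotlib 3.10.9 in python 3.11.15, and the fits were tested on simulated data.

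The labels give both genotypes replicate numbers 1 to 4. Deviations from the genotype mean correlated between equal numbers by 0.376 to 0.776, which counts as paired. Between unequal numbers of 1 set they correlated by 0.336 to 0.716, and between sets by -0.788 to -0.385, so the pairing is mostly the set. STIM KO replicate 1 followed its set least, with 0.376 and 0.336 to CS replicates 1 and 2. For STIM KO replicate 2 these were 0.716 and 0.714.

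The genes and the gene lists were chosen with earlier results of these data known. All 38 genes are named by role. Library values are given for the gene of each role with the highest CPM, for genes with an unadjusted p under 0.05 in either edgeR fit and for those without overlap, and of other lists genes with an adjusted p under 0.05 are named. Library values of dpn, insc and pros, the overlapping genes, ng1, ng2 and ng3, and genes in the closing section were added after their values were seen. The labels call the libraries biological replicates. Alternatives were DESeq2, other scalings, no expression filter, single transcripts, the replicate block, each library set alone, replicates 2 to 4, and leaving out each library. No sequence is printed.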

Additional observations from a re-analysis of the deposited data

Results flagged for a closer look

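One value stood apart from its group among the 66 groups of 4 libraries checked, where chance would flag about 1 in 20. In CS, stau had 2.71 CPM in replicate 3, from 6 counts, and 0 in the other 3 libraries, so the gap took up the whole range of the group (ratio 1.0). The gene was counted over 129 bases of its 5′UTR.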

How the results depend on the processing

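The count of genes with an adjusted p under 0.05, 0 with genotype alone, rose to 39 when the library set was added, and was 16 with the replicate block, 2 with library size only, 4 without the expression filter, 460 without the filter and with the set term, 78 with DESeq2, 32 with DESeq2 on replicates 2 to 4 and 447 with DESeq2 and the set term, and 0 to 62 when 1 library was left out: 0 each time with genotype alone, and with the set term from 2 without CS replicate 2 to 62 without STIM KO replicate 1. The same count among the 38 neuroblast genes stayed at 0 under all of these but DESeq2 with the set term, which gave 4. The number of them without overlap, 1, was 0 with library size only (5.01% of all genes), 2 of 33 in replicates 2 to 4 (6.06%, against 11.5% of all genes), 14 in replicates 1 and 2 alone (42.4%, against 41.8%), 21 in replicates 3 and 4 alone (63.6%, against 49.7%), and 1 to 3 when 1 library was left out (3.03% to 9.09%, against 6.61% to 8.98%). The replicate block took none of the listed genes past the adjusted threshold.

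Among the 28 tested genes 17 kept their sign under every alternative: all 6 tested identity genes, N, Dl, baz, mira, par-6, btd, grh, brat, pros, numb and pins. The other 11 turned under some. The log2 fold change of insc was -1.28 with the set term, -1.43 with the replicate block, -1.40 with DESeq2 and the set term, -1.24 without the filter and with the set term, -3.95 in replicates 3 and 4 alone and -2.39 to 0.95 when 1 library was left out. In the same order chinmo was 0.35, 0.30, 0.32, 0.39, 1.19 and -1.83 to 0.74, and hth 0.20, 0.17, 0.17, 0.24, 0.82 and -0.81 to 0.41. In replicates 2 to 4, by edgeR and by DESeq2, chinmo was 0.37 and 0.46, hth 0.13 and 0.22, and Imp 0.40 and 0.47. The gene cas was 0.19 with DESeq2 and the set term, 0.041 without the filter and with the set term, and 1.08 in replicates 1 and 2 alone, where aPKC was -0.0036 and Kr -0.44. The gene slp1 was 0.046 with DESeq2 on replicates 2 to 4 and 0.31 in replicates 3 and 4 alone. Leaving out 1 library gave -1.34 to 0.49 for Imp, -0.72 to 0.48 for aPKC, -1.15 to 0.49 for cas, -0.55 to 1.03 for Kr, -0.22 to 0.83 for elav, -0.85 to 0.20 for slp2 and -1.38 to 0.058 for svp. The cause was not tested. The 10 genes that were not tested had too few counts for the filter. Syp and D have no countable base at any depth, while all 1438 bases of sc could be counted. Whether depth, countable length or low expression set the counts of the others was not tested. Depth limits values of N, Dl, baz and l(1)sc in replicates 3 and 4 of STIM KO, which rest on 10 counts or fewer.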

Other observations

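Genes of the other lists that were singled out after their values were seen gave some of the clearest separations. The gene lin-28, which encodes an RNA-binding protein of developmental timing, had 22.2, 19.8, 47.9 and 97.8 CPM in the CS libraries, against 287.6, 118.2, 221.3 and 233.4 CPM in those of STIM KO. All 4 STIM KO libraries were above all 4 CS libraries, and its log2 fold change with the library set as a term was 2.34 (edgeR adjusted p = 0.053). E(spl)mgamma-HLH, a target gene of Notch in neuroblasts, had 76.3, 81.0, 108.0 and 54.1 CPM in the CS libraries, against 37.4, 27.4, 18.6 and 38.6 CPM in those of STIM KO. Here too the genotypes did not overlap, with all STIM KO libraries the lower ones and a log2 fold change of -1.40 (edgeR adjusted p = 0.110). The gene fne, for a neuronal RNA-binding protein of the Elav family, had 257.5, 138.3, 146.0 and 76.3 CPM in the CS libraries, against 5.91, 34.6, 44.4 and 24.9 CPM in those of STIM KO, again without overlap, and the synaptic gene cpx was higher in STIM KO in every library than in any CS library. DESeq2 with the library set as a term gave adjusted p-values under 0.05 for lin-28, E(spl)mgamma-HLH, fne and cpx. Besides sad, ng1, ng2 and ng3, it also did so for mamo and wrapper, which were lower, and br, nSyb and Mdr65, which were higher. The temporal gene mamo had a log2 fold change of -3.76 (DESeq2 adjusted p = 3.5e-04). The edgeR filter removed mamo, so the temporal genes tested above do not include it.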
